A study of Homo sapiens with 22 samples.

Results

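The integrin and focal adhesion genes described here are 47 named genes of 20015 protein-coding genes. They comprise 12 integrin alpha chains, 5 integrin beta chains and 30 genes of the cytoplasmic side of the adhesion. All 47 were found by symbol in the GENCODE release 44 annotation of hg38, and each was taken as its gene body with 10 kb to each side. Peak lists came from chromatin immunoprecipitation and sequencing of TC-32, an established cell line of Ewing sarcoma, which is a tumour driven by the fusion protein EWSR1::FLI1. Both arms received siRNA at 20 nM by reverse transfection, either a control (siNEG) or one against FLI1 (siFLI1), the part of the fusion gene that supplies its DNA-binding domain. Each arm had 2 lists for H3K27ac, 2 for H3K4me3 and 2 for the transcription factor ETS1. An H3K27ac library made with the antibody ab4729 was kept apart, with 1 list in each arm. The design rests on 1 cell line and 1 siRNA per arm, and the labels do not say whether replicates were separate transfections.

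Integrins are paired alpha and beta chains that span the plasma membrane and bind collagens, laminins, fibronectin and vitronectin outside the cell. Talins and kindlins bind the beta tail and switch the receptor on, the ILK, PINCH and parvin complex and the filamins, alpha-actinins and vinculin join it to actin, and FAK (PTK2), SRC and paxillin pass the signal on. H3K27ac marks active promoters and enhancers, and H3K4me3 marks promoters. In Ewing sarcoma cells, loss of the fusion is known to bring flatter, more adhesive cells with more actin stress fibres.

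The lists held 60033 to 65509 peaks for H3K27ac, 18353 to 19732 for H3K4me3, 208 and 302 for ETS1 in siNEG and 1640 and 2635 for ETS1 in siFLI1. The ab4729 lists held 32738 peaks in siNEG and 51663 in siFLI1. Before any averaging, the replicate lists of ETS1 and H3K27ac were compared by peak height. The H3K4me3 pairs were not compared in this way. Heights were recovered from the deposited fold and p, over regions in both lists with a summed height of 50 to 500. For ETS1 the siFLI1 pair differed by less than the sampling noise (chi-square per degree of freedom 0.419 over 496 regions), so they were counted as 1 sample. The same value was 0.814 over 80 regions for the siNEG ETS1 lists, and 1.14 and 1.00 for the H3K27ac pairs. A promoter H3K4me3 peak stood in all 4 lists at 8 of 8 Ewing sarcoma markers, 0 of 5 blood cell markers, 1 of 5 endothelial markers and 2 of 5 epithelial markers. At 38 of the 47 adhesion genes such a peak, within 1 kb of a start site of the gene, was in all 4 lists, and ITGA8, ITGA10, ITGA11, ITGB3 and PARVB had it in none.

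Lists of 1 antibody were merged where intervals shared 1 bp. A merged region was counted as gained when it was in the 2 siFLI1 lists but not in any siNEG list, lost in the opposite case, shared when all 4 lists held it, and mixed otherwise. H3K27ac at the adhesion genes was gained at more places than it was lost. Of 636 merged H3K27ac regions, 74 were gained (11.6%, against 7.37% of the regions at all protein-coding genes), 23 were lost (3.62%, against 4.06%) and 144 were shared (22.6%, against 25.4%). At least 1 gained region lay at 24 of 47 genes, against 21.9% of all protein-coding genes, and at least 1 lost region at 12, against 12.6%.

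The adhesion genes are longer than most and carry more regions, with a median of 9 H3K27ac regions against 3 and a median gene length of 81739 bp against 27466 bp. Each was therefore set beside the protein-coding genes whose number of H3K27ac regions lay within 10% of its own, 50 genes or more in each case. Summed over the 47 genes, the means of these like genes came to 40.8 gained, 24.2 lost and 151 shared regions. The 74 gained regions were thus above that sum, while lost and shared regions were close to it. These are descriptions of the lists, with no test. Gained regions outnumbered lost ones at 19 genes, lost ones outnumbered gained ones at 5, and the numbers were equal at 23, of which 19 had neither.

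**Figure D1:**
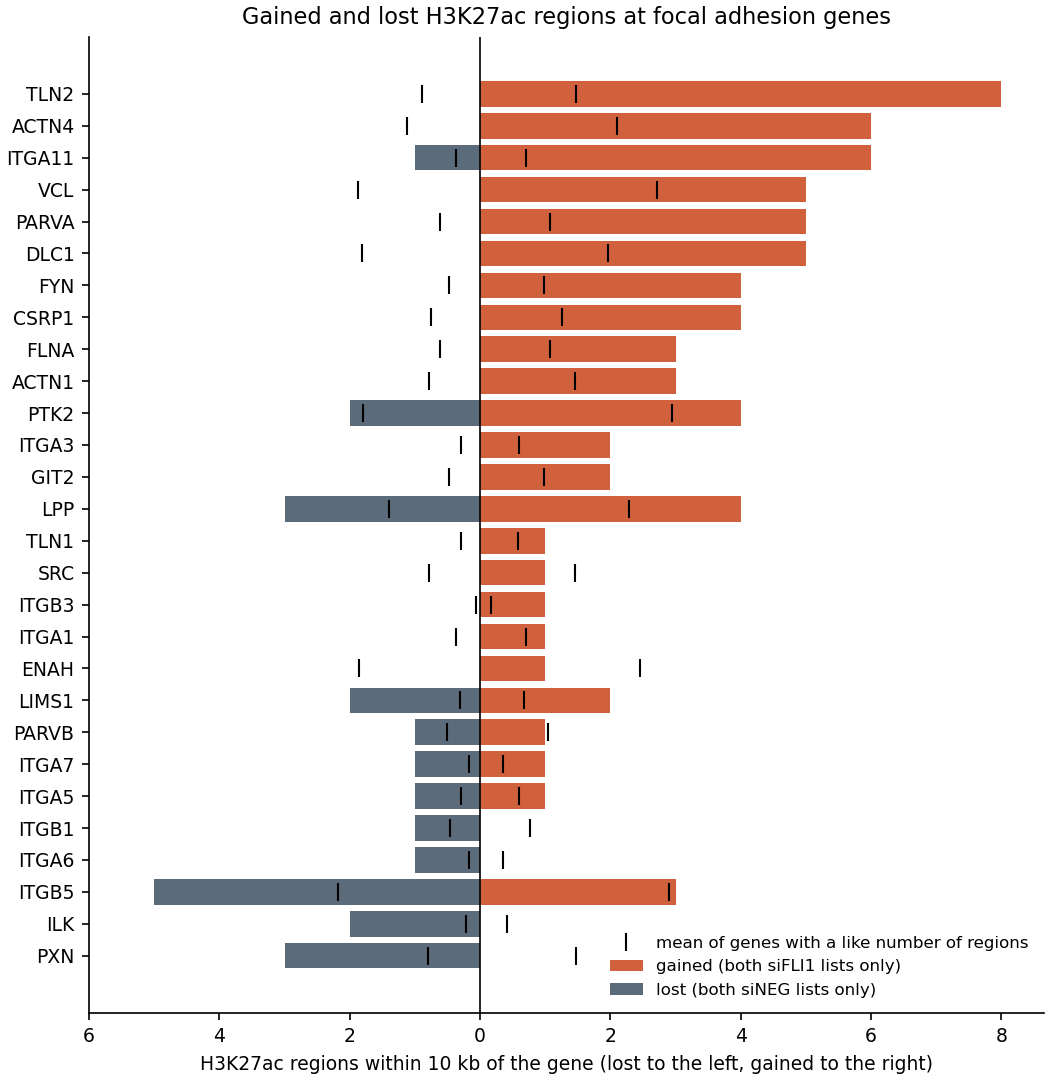
Number of H3K27ac regions gained (orange, to the right) and lost (grey, to the left) at the 28 adhesion genes with either, with a black tick at the mean of genes with a like number of regions. TLN2, ACTN4 and ITGA11 have the most gained regions, with 8, 6 and 6, and ITGB5, PXN and LPP the most lost ones, with 5, 3 and 3.

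By role in the adhesion, the actin-linking proteins had 22 gained and 0 lost regions of 191, where like genes gave 12.3 and 7.59. Talins and kindlins had 9 gained and 0 lost of 33, where like genes gave 2.12 and 1.21. TLN2 held 8 of these 9 gained regions and TLN1 held 1, with 0 at FERMT1 and FERMT2. Kinases and signalling adaptors had 16 and 2 of 157, against 9.72 and 6.09.

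Alpha chains had 11 gained and 4 lost regions of 53, where like genes gave 3.56 and 1.75. The ILK, PINCH and parvin complex had 8 and 5 of 54, against 3.63 and 1.85. Only as sums did the beta chains and the LIM adaptors of the zyxin and paxillin families have more lost than gained regions. Beta chains had 4 gained and 6 lost of 68, against 4.08 and 2.78, and LIM adaptors 4 and 6 of 80, against 5.42 and 2.94. ITGB5 alone held 51 of the 68 beta-chain regions and 5 of the 6 lost ones. Among the LIM adaptors 1 gene, PXN, had more lost than gained regions, with 3 and 0, and LPP had 3 lost and 4 gained.

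To compare arms with a test, the length covered by H3K27ac peaks was summed for each gene and list and fitted with limma on log2(bp + 1000). The fit ran over 12908 protein-coding genes with a mean of at least 500 bp, and p-values were adjusted over all of them (Benjamini-Hochberg). Of the 47 adhesion genes 38 were tested: 15 were higher in siFLI1, 2 were lower, and 21 did not pass adjusted p of 0.05. Without the length filter, over all 20015 genes, 5 adhesion genes were higher and 0 lower, where 320 of all genes were higher and 121 lower. The 5 include ITGB3 and ITGB8, which had 0 bp in both siNEG lists and were under the filter. Of the 17 calls only those of TLN1, PARVA and ITGA11 then held, and the other 14 kept their log2 differences but had limma adjusted p from 0.055 to 0.25. Among the 12908 genes tested with the filter, 15.8% were higher and 4.45% were lower. At the rates of like genes the count would be 8.31 higher and 2.84 lower. The median difference was 0.43 for the 38 genes, 0.19 for all genes tested and 0.20 for the like genes. Both siFLI1 lists lay above both siNEG lists at 28 of the 38 genes (46.7% of all genes tested) and below them at 5 (16.2%). Without siFLI1 replicate 1, or without siFLI1 replicate 2, limma called 0 genes in either direction, and 18 and 17 adhesion genes had an unadjusted p under 0.05. The directions of the 17 called genes held in both. Since the median difference over all genes tested was 0.19, the fit was repeated with that median subtracted from both siFLI1 lists (centred lists). This gave 12 higher and 3 lower adhesion genes, where all genes changed from 2041 higher and 574 lower to 1094 and 990.

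**Figure D2:**
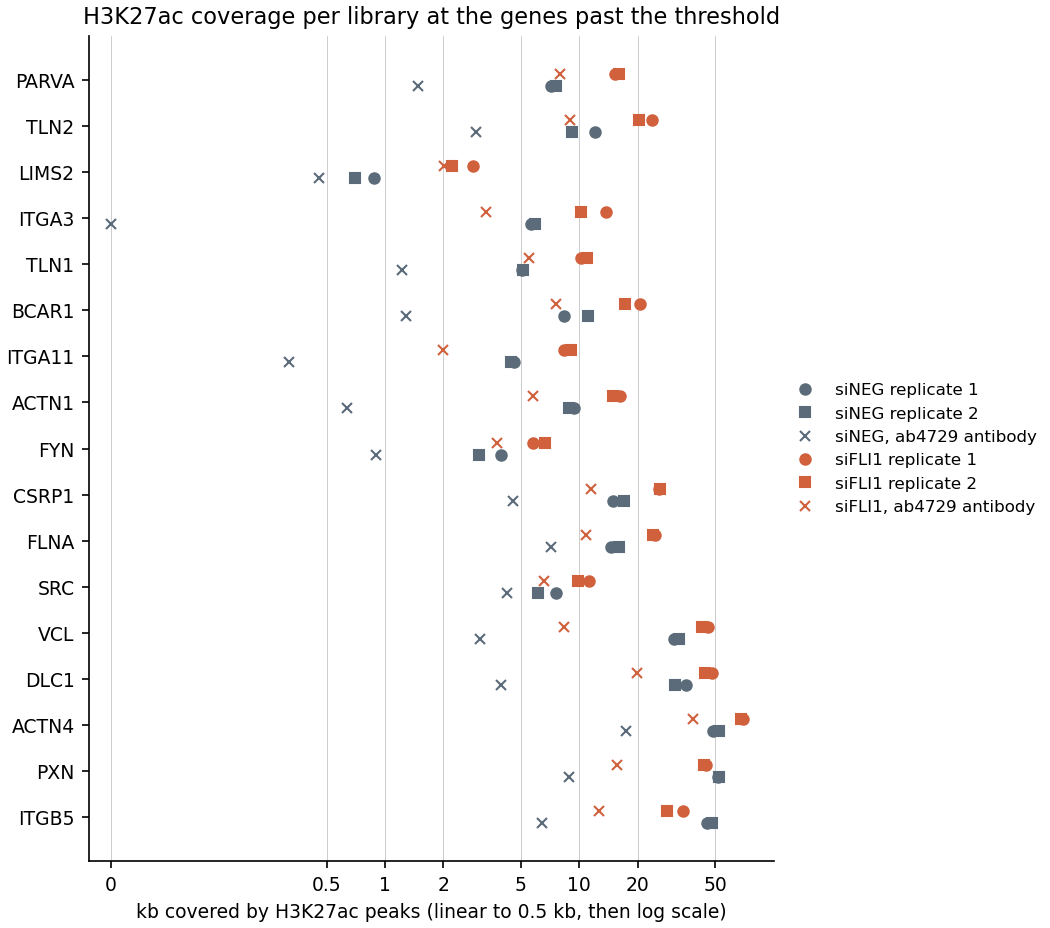
Length covered by H3K27ac peaks at the 17 adhesion genes past adjusted p of 0.05, in each of the 4 replicated lists (circles and squares) and in the ab4729 pair (crosses), siNEG in grey and siFLI1 in orange, on an axis that is linear to 0.5 kb and logarithmic beyond. The siFLI1 lists lie above the siNEG lists at 15 genes and below them at PXN and ITGB5, while the siFLI1 ab4729 value is the higher one at all 17.

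Talins, which bind the integrin beta tail and actin, were both higher. TLN1 (ENSG00000137076.22, chr9:35696948-35732195) was covered over 5093 and 5125 bp in siNEG and over 10267 and 10919 bp in siFLI1, a log2 difference of 0.92 ± 0.13 (SE, n = 2 lists per arm, limma adjusted p = 0.0041). TLN2 (ENSG00000171914.17, chr15:62390526-62844631), the second talin gene, was covered over 12112 and 9207 bp in siNEG and over 23625 and 20193 bp in siFLI1, a difference of 0.98 ± 0.14 (SE, n = 2 lists per arm, limma adjusted p = 0.0052). The arms did not overlap at either gene. The kindlin genes FERMT1 and FERMT2 fell under the length filter. FERMT1 had no H3K27ac region, and FERMT2 had 1, at its promoter, in 3 of the 4 lists.

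TLN2 had 24 H3K27ac regions, of which 8 were gained, 0 were lost and 7 were shared, where like genes averaged 1.47 gained and 0.90 lost. Of the 8 gained regions 7 were intronic. The other, at chr15:62849939-62852087, lay downstream of the gene and had the highest fold of all gained regions at the adhesion genes, 16.6 and 11.4 in the siFLI1 lists and 9.54 in the siFLI1 ab4729 list. Fold is the authors' deposited enrichment of a peak over its background. The next highest at TLN2, at chr15:62606625-62607774, lay in an intron, with a fold of 8.91 and 7.95, and 7.56 in ab4729. The strongest gained region of ITGA3, upstream at chr17:50052674-50054577, had 7.35 and 7.67. The hg38 sequence at the summits of these regions is printed on the plus strand, because they are among the strongest gains, with the 21 bases around the summit in capitals:
TLN2 downstream, chr15:62851185-62851285: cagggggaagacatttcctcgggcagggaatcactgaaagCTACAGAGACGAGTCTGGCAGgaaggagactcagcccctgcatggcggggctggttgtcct
TLN2 intron, chr15:62606868-62606968: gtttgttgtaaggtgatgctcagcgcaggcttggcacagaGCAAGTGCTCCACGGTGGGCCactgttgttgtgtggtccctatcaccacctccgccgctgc
ITGA3 upstream, chr17:50053558-50053658: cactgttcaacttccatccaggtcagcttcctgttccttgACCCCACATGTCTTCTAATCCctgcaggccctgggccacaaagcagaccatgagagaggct

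**Figure D3:**
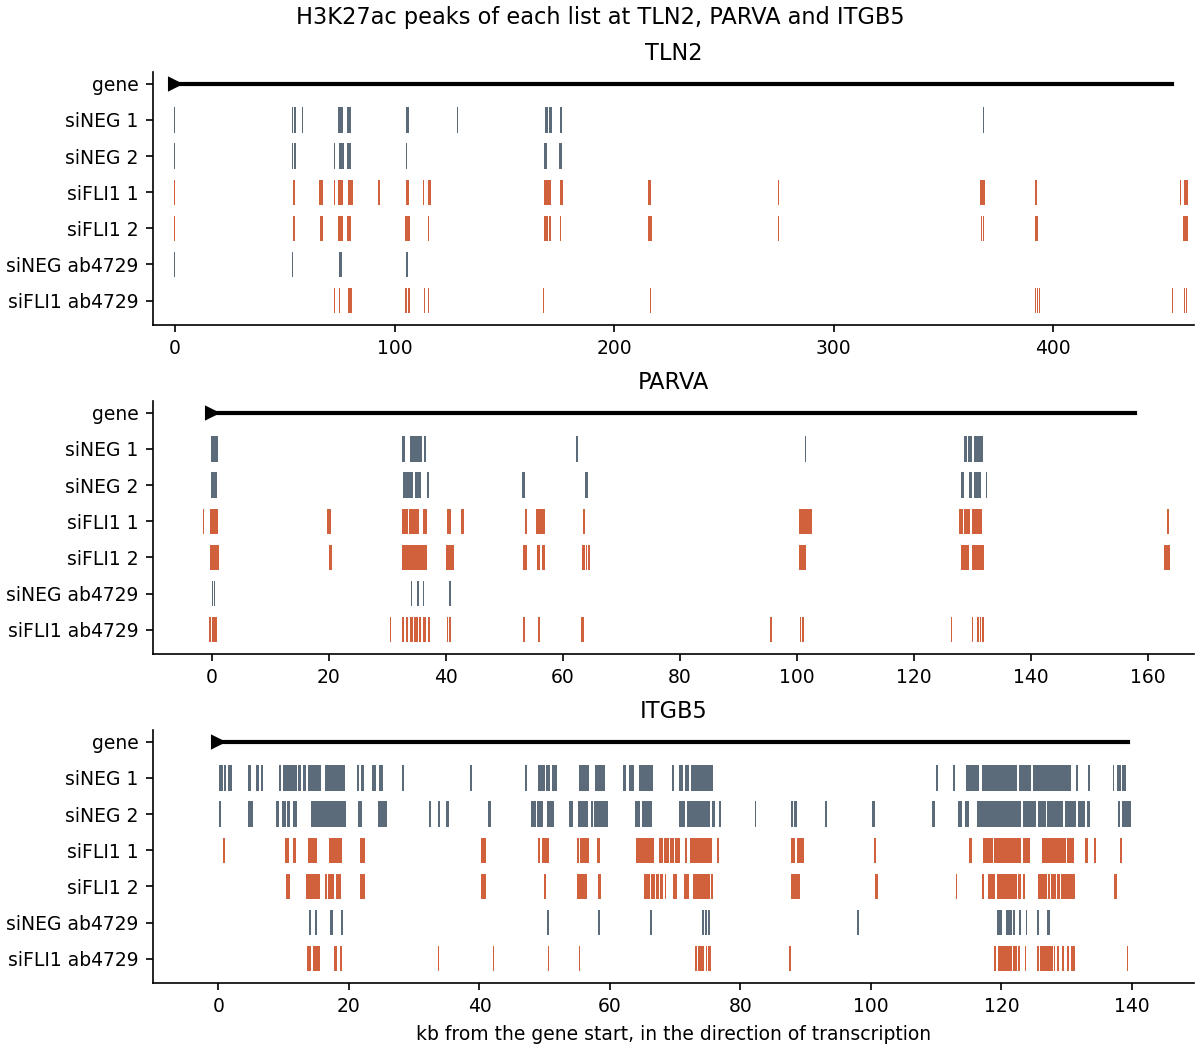
H3K27ac peaks of the 4 replicated lists and the ab4729 pair at TLN2, PARVA and ITGB5, by distance from the gene start in kb, with the gene body as a black line; siNEG is grey and siFLI1 orange. At TLN2 the 8 gained regions lie from 66403 bp inside the gene to 460709 bp, beyond its end; at PARVA 5 regions appear with siFLI1, and at ITGB5 5 regions are missing there.

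The actin-linking proteins contributed 5 of the 15 genes that were higher. ACTN1, an alpha-actinin that crosslinks actin at adhesions, was covered over 9341 and 8903 bp in siNEG and over 16253 and 14929 bp in siFLI1 (0.71 ± 0.11, SE, limma adjusted p = 0.0059). Its relative ACTN4 was covered over 48680 and 52607 bp in siNEG and over 69643 and 67980 bp in siFLI1 (0.44 ± 0.06, SE, limma adjusted p = 0.0048). FLNA, filamin A, which crosslinks actin and binds integrin tails, had 14485 and 15930 bp in siNEG and 24457 and 23996 bp in siFLI1 (0.64 ± 0.09, SE, limma adjusted p = 0.0049). In all 3 genes the siFLI1 lists lay above the siNEG lists with no overlap.

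CSRP1, a LIM protein that binds actin bundles, was covered over 14898 and 17035 bp in siNEG and over 25752 and 26018 bp in siFLI1 (0.67 ± 0.10, SE, limma adjusted p = 0.0049). VCL, vinculin, which joins talin to actin, had 30862 and 32619 bp in siNEG and 45796 and 42985 bp in siFLI1 (0.47 ± 0.07, SE, limma adjusted p = 0.0060). The other 3 genes of this group, ENAH, FLNC and VASP, did not pass (0.25, 0.44 and 0.31, limma adjusted p from 0.084 to 0.26), although the siFLI1 lists lay above the siNEG lists at each. The median difference of all genes tested was 0.19. ACTN4 had 6 gained regions, VCL 5, CSRP1 4, ACTN1 and FLNA 3 each and ENAH 1, and none of the 8 genes had a lost region.

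Among the kinases and adaptors, BCAR1 (p130Cas), a docking protein phosphorylated by SRC family kinases, was covered over 8367 and 11051 bp in siNEG and over 20608 and 17097 bp in siFLI1 (0.90 ± 0.15, SE, limma adjusted p = 0.0081). It had 0 gained regions, so its longer coverage lay in 4 shared and 7 mixed regions. DLC1, a RhoGAP that binds tensins at adhesions, had 35247 and 31041 bp in siNEG and 47936 and 44529 bp in siFLI1 (0.47 ± 0.08, SE, limma adjusted p = 0.0098), with 5 gained and 0 lost regions.

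The kinase FYN had 3950 and 3042 bp in siNEG and 5776 and 6694 bp in siFLI1 (0.69 ± 0.18, SE, limma adjusted p = 0.032), and SRC had 7580 and 6098 bp in siNEG and 11261 and 9841 bp in siFLI1 (0.56 ± 0.15, SE, limma adjusted p = 0.035). DLC1, FYN and SRC no longer passed once the lists were centred. Over the gene body alone FYN (0.69, limma adjusted p = 0.063) and SRC (0.56, limma adjusted p = 0.087) did not pass either, with differences like those above. SRC also missed the threshold with equal numbers of the strongest peaks (0.47, limma adjusted p = 0.053) and without peaks at the start sites of other genes (0.56, limma adjusted p = 0.054). FAK, the kinase encoded by PTK2, had 24373 and 21171 bp in siNEG and 27933 and 28905 bp in siFLI1, which did not pass (0.31 ± 0.09, SE, limma adjusted p = 0.054), with 4 gained and 2 lost regions of 46. Without siNEG replicate 1 it passed (0.41, limma adjusted p = 0.038). GIT2 and ARHGEF7, partners in a complex that acts on Rac and Arf GTPases, had differences of 0.81 and 0.23 (limma adjusted p = 0.065 and 0.32). The GIT2 value was 0.42 without siNEG replicate 1 and 1.21 without siNEG replicate 2, where it passed (limma adjusted p = 0.029). The ARHGEF7 value was 0.36 and 0.10 in the same fits, with no call.

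In the ILK, PINCH and parvin complex 2 of the 5 genes were higher, 0 were lower and 3 did not pass. PARVA (ENSG00000197702.14, chr11:12377563-12535356), alpha-parvin, an actin-binding partner of ILK, was higher. It was covered over 7168 and 7547 bp in siNEG and over 15190 and 16105 bp in siFLI1 (0.99 ± 0.11, SE, limma adjusted p = 0.0022), and 5 of its 17 regions were gained and 0 lost. LIMS2, the second PINCH gene, had 882 and 703 bp in siNEG and 2841 and 2209 bp in siFLI1 (0.97 ± 0.21, SE, limma adjusted p = 0.018).

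PARVB, beta-parvin, had 13528 and 12579 bp in siNEG and 10607 and 9286 bp in siFLI1. This lower value did not pass (-0.36 ± 0.12, SE, limma adjusted p = 0.070), but it was the third lower gene once the lists were centred. ILK itself had overlapping values (-0.11, limma adjusted p = 0.53), with 2 lost and 0 gained regions of 6, 1 of them at the start site of its neighbour TPP1. Peaks within 1 kb of the start sites of ILK went the other way, with 4470 and 5976 bp in siNEG and 8263 and 10885 bp in siFLI1. LIMS1, the first PINCH gene, had 2 gained and 2 lost regions (0.25, limma adjusted p = 0.26). The gained ones lay in an intron, and that at chr2:108593851-108595840 had a fold of 3.80 and 10.7.

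Of the alpha chains, ITGA3 and ITGA11 were higher. ITGA3 (ENSG00000005884.18, chr17:50055968-50090481), a laminin-binding chain, was covered over 5622 and 5902 bp in siNEG and over 13665 and 10227 bp in siFLI1 (0.92 ± 0.16, SE, limma adjusted p = 0.0082). ITGA11 (ENSG00000137809.17, chr15:68296532-68432163), a collagen-binding chain, had 4591 and 4434 bp in siNEG and 8342 and 9035 bp in siFLI1 (0.81 ± 0.14, SE, limma adjusted p = 0.0080). Of its 11 regions, 6 were gained and 1 was lost, where like genes averaged 0.70 and 0.37. ITGA3 had 2 gained regions, both upstream of the gene.

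ITGAV (0.51), ITGA7 (0.43), ITGA10 (0.28), ITGA1 (0.12), ITGA5 (-0.27) and ITGA6 (-0.28) did not pass, with limma adjusted p from 0.11 to 0.64. The sign of ITGA1 turned without siNEG replicate 2 (-0.06). Lists within an arm also differed at ITGA7 (1806 and 3382 bp in siNEG), ITGA6 (833 and 292 bp in siFLI1) and ITGA5 (6888 and 5460 bp in siFLI1). ITGA6, a laminin-binding chain, had 1 lost and 0 gained regions. ITGA2, ITGA4, ITGA8 and ITGA9 had no H3K27ac region in any list and were not tested.

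ITGB5 (ENSG00000082781.12, chr3:124761948-124901418), the beta chain of the vitronectin receptor alpha-v beta-5, went the other way. It was covered over 45393 and 47942 bp in siNEG and over 34242 and 28397 bp in siFLI1, and fell by 0.57 ± 0.10 on the log2 scale (SE, n = 2 lists per arm, limma adjusted p = 0.0082). With 51 regions it had the most of the 47 genes, 5 of them lost, 3 gained and 10 shared. Of the lost regions 4 had summits from 285 to 24784 bp inside the gene, at its start site or in its introns, and the other lay 138704 bp inside it and overlapped an exon. The gained ones lay 40439 to 68601 bp inside it. The ab4729 list was longer in siFLI1 at ITGB5, with 12625 bp against 6466 bp, and the ab4729 lists as a whole covered 25530987 bp in siFLI1 against 15385021 bp in siNEG.

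ITGB1, the common beta chain, had 15402 and 13393 bp in siNEG and 15406 and 14238 bp in siFLI1, which overlapped (0.04 ± 0.11, SE, limma adjusted p = 0.82), and its sign turned without siNEG replicate 2 (-0.05) or siFLI1 replicate 1 (-0.01). The ITGB1 difference also lay below the median of 0.19 over all genes tested, so it was negative with centred lists. ITGB3, ITGB4 and ITGB8 fell under the length filter. ITGB3, the beta chain of alpha-v beta-3, had 1 gained intronic region at chr17:47275961-47276842, with a fold of 4.30 and 4.96, and 4.53 in the siFLI1 ab4729 list.

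PXN, paxillin, a scaffold that FAK and SRC phosphorylate, was covered over 51784 and 52427 bp in siNEG and over 45117 and 43874 bp in siFLI1. It fell by 0.22 ± 0.06 (SE, limma adjusted p = 0.041), with 3 lost and 0 gained regions of 23. Without peaks at the start sites of other genes the difference was -0.22 with a limma adjusted p of 0.063, and over the gene body alone it was -0.05 (limma adjusted p = 0.61). The other LIM adaptors did not pass: ZYX (0.49), TRIP6 (0.13), LPP (0.14), TES (0.10) and TGFB1I1 (-0.39), with limma adjusted p from 0.058 to 0.63. TRIP6, LPP and TES lay below the median of 0.19 over all genes tested, so their differences were negative with centred lists. The LPP value was 0.45 without siNEG replicate 1 and -0.16 without siNEG replicate 2. LPP had 4 gained and 3 lost regions of 34 in its introns, and TES, with 38558 to 44363 bp of coverage, had 0 of either.

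Of the 74 gained H3K27ac regions, 46 lay inside the gene away from its start sites, 17 within 1 kb of a start site of the gene and 11 beside it. Their median fold was 4.58 and 4.75 in the siFLI1 lists, near the middle of those lists (48.1 and 47.4 percentile), whereas shared regions stood at percentiles from 76.9 to 79.7. The ab4729 pair held 25 of the 74 in siFLI1 only, 0 in siNEG only, 2 in both and 47 in neither. At all protein-coding genes these numbers were 1536, 50, 109 and 3794. Of the 23 lost regions, ab4729 held 2 in siNEG only, 2 in siFLI1 only and 19 in neither, against 300, 131 and 2491 of the lost regions at all protein-coding genes, with 100 in both. The ab4729 pair had 1 list per arm, so no test was possible.

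Motifs were searched on both strands within 250 bp of the summits of the regions. The CArG box, the site of serum response factor, which drives many cytoskeletal genes, was found in 7 of the 74 gained regions (9.46%), against 2.59% of gained and 2.71% of all H3K27ac regions at protein-coding genes. In the shared regions of the adhesion genes its share was 6.94%, and in the 23 lost regions it was found in 0. The 7 sites are printed in capitals with 20 bases of hg38 to each side on the plus strand, to show the match at each gene:
CSRP1, chr1:201513456-201513505: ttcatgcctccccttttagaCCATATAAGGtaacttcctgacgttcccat
FLNA, chrX:154356212-154356261: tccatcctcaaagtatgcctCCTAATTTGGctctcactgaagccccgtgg
FYN, chr6:111819107-111819156: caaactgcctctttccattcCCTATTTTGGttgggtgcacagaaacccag
ITGA11, chr15:68347323-68347372: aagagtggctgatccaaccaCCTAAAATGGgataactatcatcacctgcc
LPP, chr3:188298738-188298787: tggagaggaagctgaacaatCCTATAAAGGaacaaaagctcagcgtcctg
PARVA, chr11:12433858-12433907: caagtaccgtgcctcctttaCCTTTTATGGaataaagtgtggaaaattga
TLN2, chr15:62506300-62506349: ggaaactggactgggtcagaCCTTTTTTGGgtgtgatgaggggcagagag

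The site at CSRP1 lay upstream of the gene, and the other 6 lay inside their genes. The TEAD core GGAATG was found in 30 of the 74 gained regions (40.5%), against 28.7% of gained and 25.3% of all H3K27ac regions. The AP-1 site TGANTCA was found in 10 (13.5%, against 17.7% of gained regions) and the ETS site CCGGAAG in 1 (1.35%, against 2.64%). A match is a description of the sequence and not evidence of binding.

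EWSR1::FLI1 is known to bind runs of GGAA. Such a run, of 4 units or more and no farther than 1 kb from the middle of the region, was found for 1 of the 23 lost regions (4.35%, against 7.31% of lost regions at protein-coding genes) and for 1 of the 74 gained regions (1.35%, against 0.49%). The lost region, in an intron of LPP at chr3:188508647-188509401, had a fold of 3.94 and 4.73 in siNEG. The gained one lay in ITGB5 at chr3:124833253-124834294. The runs are shown in capitals, that of LPP on the minus strand and that of ITGB5 on the plus strand, because they differ in length, with 60 bases at LPP and 16 at ITGB5:
LPP, chr3:188509587-188509726: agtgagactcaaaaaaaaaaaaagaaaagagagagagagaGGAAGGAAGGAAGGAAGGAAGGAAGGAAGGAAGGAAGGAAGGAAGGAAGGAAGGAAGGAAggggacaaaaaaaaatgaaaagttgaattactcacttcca
ITGB5, chr3:124834406-124834501: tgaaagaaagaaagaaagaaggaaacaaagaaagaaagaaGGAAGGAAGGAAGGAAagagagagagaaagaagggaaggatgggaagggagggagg

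Few H3K4me3 regions at the adhesion genes were gained or lost, in shares close to those at all protein-coding genes. Of 109 merged regions at the adhesion genes 3 were gained (2.75%, against 1.96% at all protein-coding genes), 3 were lost (2.75%, against 2.8%) and 63 were shared. A gained region lay at 3 genes (2.58% of all protein-coding genes had one) and a lost region at 2 (4.58%). Like genes gave 1.52 gained and 3.61 lost regions. In the limma fit of covered length over 13968 genes, 42 adhesion genes were tested, of which 5 were higher and 6 were lower in siFLI1. ITGB8, 1 of the 5, passed the length filter only through the siFLI1 lists. Without that filter limma called 0 adhesion genes, with 19 at an unadjusted p under 0.05, and 99 higher and 16 lower of all 20015 genes. Among all genes tested 3.79% were higher and 11.2% lower, and at the rates of like genes the counts would be 1.71 and 5.75. The median difference was -0.05 for the 42 genes and -0.09 for all genes tested. With lists centred in the same way, by the median difference of this mark, 5 adhesion genes were higher and 2 lower. All genes then changed from 529 higher and 1568 lower to 702 and 445. Without siFLI1 replicate 1 or 2 limma called 0 adhesion genes, with 16 and 13 at an unadjusted p under 0.05, where 101 and 85 of all genes were higher and 52 and 62 lower. Over the gene body alone it also called 0, with 12 at that level, and 49 higher and 7 lower of all 12563 genes tested.

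**Figure D4:**
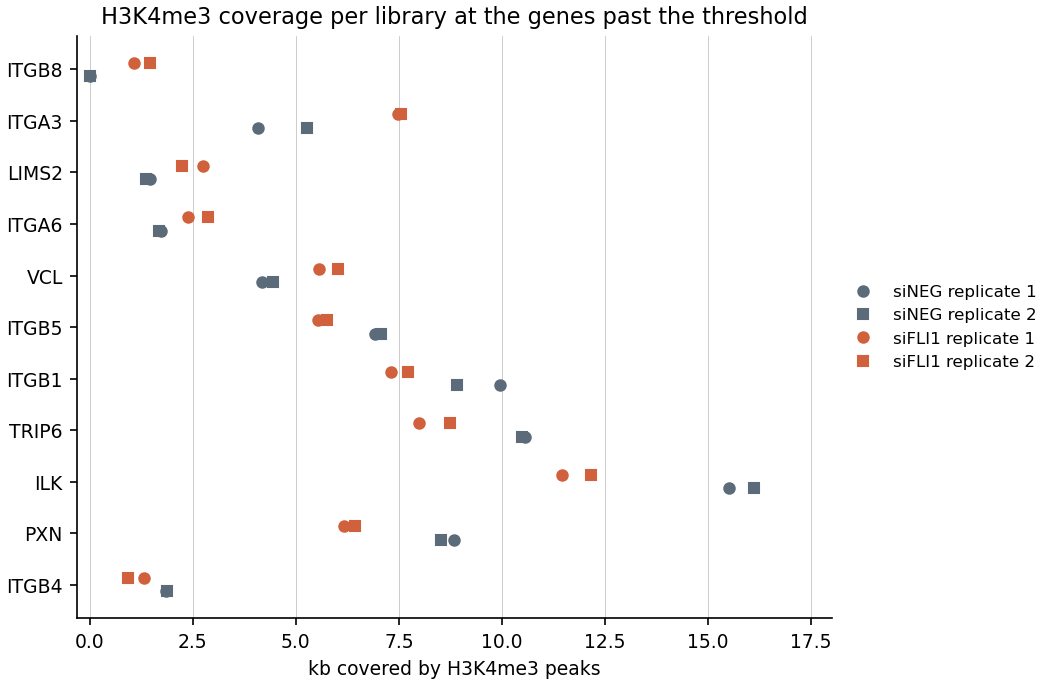
Length covered by H3K4me3 peaks at the 11 adhesion genes past adjusted p of 0.05, in kb, in the 2 siNEG lists (grey) and the 2 siFLI1 lists (orange). ITGB8 has 0 in both siNEG lists, and the arms do not overlap at any of the 11 genes.

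The beta chain ITGB8 (ENSG00000105855.10, chr7:20330702-20415754), which pairs with alpha-v and activates latent TGF-beta, had no H3K4me3 peak in siNEG and 1066 and 1458 bp in siFLI1. Since it entered the fit only through the arm where it was high, its p is not given. The gained region at its promoter, at chr7:20329877-20331354, had a fold of 4.47 and 5.73, low in those lists (percentiles 18.70 and 26.96). H3K27ac stood at this promoter in siFLI1 replicate 1 only.

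ITGA9, which pairs with beta-1, had a gained promoter region at chr3:37452075-37452824 with a fold of 3.98 and 7.45, and its mean length was under the filter. The gained region of VCL lay in an intron, at chr10:74002706-74003800, with a fold of 3.88 and 4.14. Each of the 3 gained H3K4me3 regions held GGAATG, which stood in 22.4% of gained and 18.9% of all H3K4me3 regions at protein-coding genes. At the promoters the match, in capitals, read on the minus strand:
ITGB8, chr7:20330503-20330548: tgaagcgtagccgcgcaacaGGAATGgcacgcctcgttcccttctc
ITGA9, chr3:37452237-37452266: ctggacacgggcGGAATGcgggcgtcgggc

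ITGA3 was higher in both marks, with 4083 and 5272 bp of H3K4me3 in siNEG and 7489 and 7539 bp in siFLI1 (0.59 ± 0.10, SE, limma adjusted p = 0.0050). Its own promoter held 2312 and 2256 bp of this in siNEG and 3876 and 3311 bp in siFLI1. The rest lay downstream at the start site of PDK2, with 1771 and 3016 bp in siNEG and 3613 and 4228 bp in siFLI1. The call of ITGA3 held without peaks at the start sites of other genes. LIMS2 had 1472 and 1360 bp in siNEG and 2738 and 2230 bp in siFLI1 (0.52 ± 0.12, SE, limma adjusted p = 0.016). VCL (0.36 ± 0.09, SE, limma adjusted p = 0.024) and ITGA6 (0.42 ± 0.11, SE, limma adjusted p = 0.032) were higher as well. ITGA3, LIMS2 and VCL thus passed in the same direction in the H3K27ac and H3K4me3 fits, which use different lists.

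ILK had 15502 and 16122 bp of H3K4me3 in siNEG and 11464 and 12167 bp in siFLI1, a fall of 0.39 ± 0.06 (limma log2 difference of -0.39, SE, adjusted p = 0.0034). PXN had 8845 and 8532 bp in siNEG and 6159 and 6424 bp in siFLI1 (-0.41 ± 0.07, SE, limma adjusted p = 0.0064). TRIP6, a zyxin relative, ITGB1, ITGB4 and ITGB5 were lower too, with differences of -0.30, -0.29, -0.44 and -0.27 (limma adjusted p from 0.020 to 0.043). The ITGB4 values come from a region 43628 bp from its start, at the start site of GALK1 (1852 and 1531 bp in siNEG, 1318 and 929 bp in siFLI1), and its own promoter had 350 bp in siNEG replicate 2 only. PXN and ITGB5 were lower in both marks.

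Without peaks at the start sites of other genes, 2 adhesion genes were higher and 1 was lower, and calls over all 12975 genes tested fell to 270 higher and 494 lower. ITGB1, ITGB5, LIMS2, ITGA6 and VCL had no such peak, so their differences stayed as they were, and only their limma adjusted p moved, to between 0.055 and 0.082. At ILK the difference became -0.69 (limma adjusted p = 0.068) and at TRIP6 -0.19 (limma adjusted p = 0.38), and ITGB4 fell under the length filter. Peaks that also touched a start site of the gene itself were kept. At ILK these covered 13011 and 12960 bp in siNEG and 6088 and 10095 bp in siFLI1. They lay in a merged region that also holds start sites of RRP8 and TAF10, so the ILK value is not free of these neighbours. Centring ended the calls of TRIP6, ITGB1, ITGB4 and ITGB5. The 3 lost regions lay beside genes, with 2 at FLNC, filamin C, and 1 upstream of TLN1, all with a fold under 5 in both siNEG lists.

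ETS1 peaks were listed at 13 of the 47 genes, in 15 merged regions, of which 6 were gained (against 44.9% at all protein-coding genes), 0 were lost, 1 was shared and 8 were mixed. A gained ETS1 region lay at 6 genes, against 8.53% of all protein-coding genes, and like genes gave 7.62 regions. Since the siFLI1 lists count as 1 sample and were longer than the siNEG lists, a gained region means only that siFLI1 listed it and siNEG did not. With equal numbers of the strongest peaks of each list, 0 of the 6 were gained.

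The shared region lay at the start of ACTN1 (chr14:68979217-68979946), 27 bp inside the gene, with a fold of 13.4 and 8.60 in the siNEG lists and 10.3 and 15.1 in the siFLI1 lists, which overlapped. ENAH, an actin polymerase partner of VASP at adhesions, had the highest fold, 14.0 and 25.0 in siFLI1, and 7.77 in siNEG replicate 2 alone. ITGA5, the alpha chain of the fibronectin receptor, had 10.01 and 10.997 in siFLI1 and 9.12 in siNEG replicate 2. FLNA had 2 regions with both siFLI1 lists and siNEG replicate 1, at folds of 8.73 and 9.98 against 5.61, and of 8.26 and 7.41 against 5.69.

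The gained regions lay at promoters of LIMS1 (fold 7.51 and 12.2), ZYX (7.70 and 10.8), FYN (6.57 and 8.15), ITGB1 (6.57 and 6.93) and ARHGEF7 (5.94 and 8.56), and upstream of FLNA at the start site of EMD (5.01 and 7.50). The regions at ITGB1 and ARHGEF7 lay at start sites 47513 and 39045 bp inside the genes. At FYN a gained H3K27ac region, chr6:111872703-111873407, overlapped the gained ETS1 region, chr6:111873290-111873660. TLN2, TRIP6, VCL and VASP each had a peak in 1 siFLI1 list only.

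**Figure D5:**
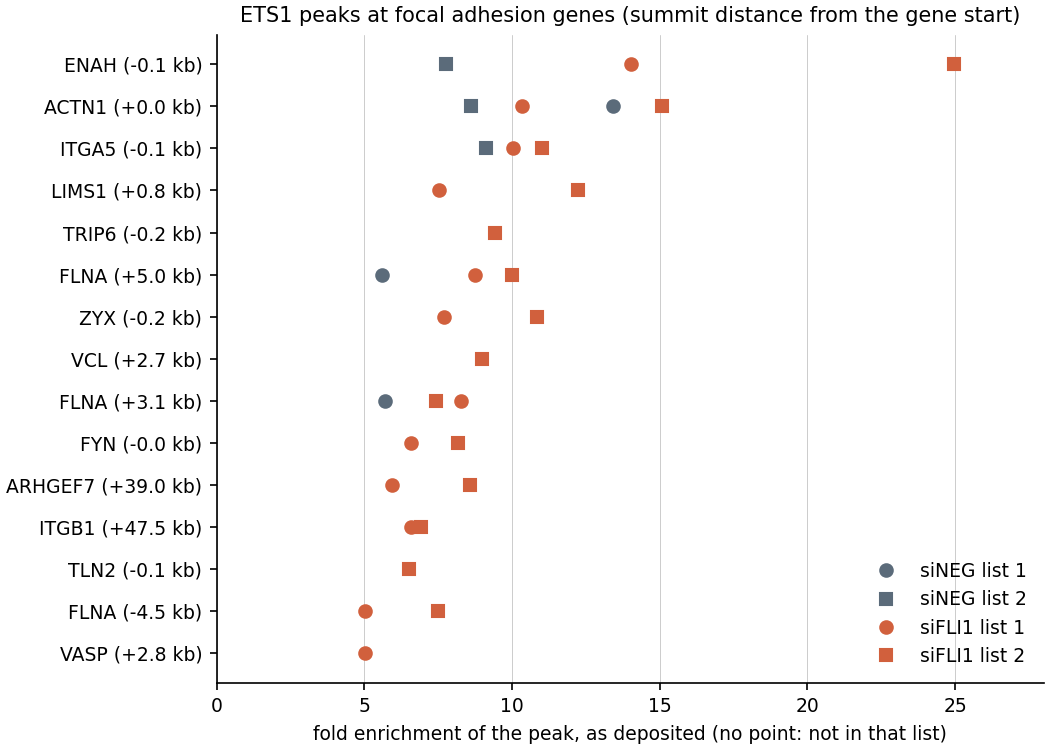
Deposited fold enrichment of the 15 ETS1 regions at adhesion genes in each list, with the distance of the summit from the gene start in kb; siNEG lists are grey, siFLI1 lists orange, and no point is drawn where a list lacks the region. ACTN1 has a point in all 4 lists, and ENAH has the highest value, 25.0.

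The ETS site CCGGAAG was found within 250 bp of the summit at 1 of the 15 ETS1 regions (6.67%), that of ARHGEF7, against 19.4% of the ETS1 regions at protein-coding genes. It stood 50 bp from the summit. At ACTN1 the core GGAA alone stood at the summit. Both sites read on the minus strand of hg38, shown with the match in capitals:
ARHGEF7, chr13:111153637-111153665: gagccccggcgCCGGAAGtgacgtcctca
ACTN1, chr14:68979397-68979426: agaggcgatggggGGAAgtttgggcaactc

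Of the adhesion genes 37 had a promoter window in the RefSeq table for GRCh38.p14. CCGGAAG was found in 1 of them, ITGB5 (2.70%, against 14.4% of 15345 promoters of protein-coding genes), and the CArG box in 1, FLNA (2.70%, against 1.22%).

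The other genes of the pathway were read from lists of integrin chains, focal adhesion genes and integrin ligands. Of 54 other focal adhesion genes 49 were tested for H3K27ac, of which 17 were higher and 1 was lower, and they had 82 gained and 20 lost regions of 748. Among all genes tested 15.8% were higher and 4.45% lower, and at all protein-coding genes 7.37% of regions were gained and 4.06% lost. Of the 17 higher genes 3 had a siNEG mean under 500 bp, so they passed the length filter only through the siFLI1 lists. FHL1, a four-and-a-half LIM protein (2.26, limma adjusted p = 0.0016), and TNS3, a tensin that binds integrin tails (1.79, limma adjusted p = 0.0011), were among the others. The lower gene was ACTN2, the muscle alpha-actinin (-0.73, limma adjusted p = 0.0081). For H3K4me3, 6 were higher and 6 lower of 49 tested, against 3.79% and 11.2% of all genes, and 1 of the higher ones passed the filter only through siFLI1.

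Of 32 integrin ligands 24 were tested for H3K27ac, of which 16 were higher and 1 was lower, with 65 gained and 5 lost regions of 308, against the same shares over all genes and regions. Of the 16, 3 passed the filter only through the siFLI1 lists. COL4A1, a chain of basement membrane collagen and 1 of these 3, had no H3K27ac peak in siNEG and 6246 and 5628 bp in siFLI1. FN1, fibronectin, had 14289 and 20608 bp in siNEG and 43026 and 48242 bp in siFLI1 (1.36, limma adjusted p = 0.0023). The lower ligand was TNC, tenascin-C (-0.71, limma adjusted p = 0.0015). THBS1, thrombospondin-1, had no H3K4me3 in siNEG and 3801 and 2884 bp in siFLI1, and 9 of 22 ligands were higher and 0 lower in that mark, against 3.79% and 11.2% of all genes. THBS1 was the 1 ligand of the 9 that passed the filter only through siFLI1.

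Of 9 integrin chains outside the 47, 5 were tested. ITGB6, the epithelial partner of alpha-v, had 0 bp of H3K27ac in both siNEG lists and 2311 and 2876 bp in siFLI1, and passed the filter only through siFLI1. ITGB2, the leukocyte beta chain, was lower in H3K4me3, with 22632 and 22826 bp in siNEG and 14703 and 14421 bp in siFLI1 (-0.61, limma adjusted p = 8.4e-05). ITGAE was lower in H3K4me3 as well (-0.28, limma adjusted p = 0.041).

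Markers of other cell types were read beside these lists. Of the 8 Ewing sarcoma markers, 0 were higher and 1, PRKCB, was lower in H3K27ac (-0.26, limma adjusted p = 0.018), and they had 3 gained and 13 lost regions of 130. PRKCB alone held 89 of these regions, 2 of the gained and 8 of the lost ones. Among all genes tested 15.8% were higher and 4.45% lower, and at all protein-coding genes 7.37% of regions were gained and 4.06% lost. In H3K4me3 CCND1 was lower (-0.32, limma adjusted p = 0.011), and 0 of these markers were higher, where 11.2% of all genes tested were lower and 3.79% higher. Of 4 epithelial markers tested 1, CDH1, was higher (1.49, limma adjusted p = 0.0039) and 0 were lower. EPCAM did not pass, with 5321 and 4969 bp in siNEG and 3458 and 3561 bp in siFLI1, which did not overlap. KRT8 had 6161 and 5713 bp in siNEG and 7699 and 7514 bp in siFLI1. KRT18 had 4670 and 4706 bp in siNEG and 5255 and 5546 bp in siFLI1. Neither keratin gene passed, and both lay higher in siFLI1 without overlap. Among all genes tested, 46.7% lay higher and 16.2% lower without overlap. Of 2 endothelial markers tested CDH5, which passed the filter only through siFLI1, had 300 and 0 bp in siNEG and 1462 and 1057 bp in siFLI1, and PECAM1 was lower (-1.74, limma adjusted p = 0.0013). Of the blood cell markers 3 were tested and 0 were called, and none of the 5 had a promoter H3K4me3 peak in any list. The part of these markers in the results above was not tested.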

How the data were processed

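Peak lists of 14 libraries were used, and the 8 inputs were not analysed here. Per the submitters' processing notes the build was GRCh38 (hg38) and the tools named were cutadapt 4.4, BWA 0.7.17, Picard 2.17.11 and MACS2 2.1.1; the control library and cut-off are not given in the sources used here. The lists were called per library. The deposited columns hold the authors' fold over background (a ratio), −log10 p and q, a score made from q, and the summit position. A list holds only peaks past the caller's limit, so a weaker immunoprecipitation shortens it and covered length is not occupancy. No library depth is stated.

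Merging was done per antibody on the autosomes (1 to 22) and the sex chromosomes, and states and covered length were taken over GENCODE v44 genes with 10 kb to each side. Covered length was tested with limma 3.58.1 (trend, log2(bp + 1000), mean of at least 500 bp, Benjamini-Hochberg), after testing on simulated data. P-values measure the spread between these libraries. Sequences came from hg38. Genes named are those past the threshold, those with the largest balance of gained and lost H3K27ac regions, those with changed H3K4me3 regions or an ETS1 region in both lists of an arm, and other members by role. The members, lists and tests were chosen with earlier results of these data known. Alternatives comprised pseudocount, filter, centring, list length, overlap, window, replicate block and leaving out each list.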

Additional observations from a re-analysis of the deposited data

How the results depend on the processing

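Of 98 alternative values for the 10 counts of adhesion genes or regions, 60 stayed within 1.5 times the count as reported. Calls per gene changed direction under no setting run. All alternatives were planned except leaving out peaks at the start sites of other genes, which was chosen after seeing the data. In each case below the cause was not tested.

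For H3K27ac covered length, 15 genes higher and 2 lower became 5 and 0 without the length filter. Over the gene body alone 1 was lower, as without peaks at the start sites of other genes. For H3K4me3, 5 higher and 6 lower became 0 and 0 without the filter (19 at an unadjusted limma p under 0.05), 0 and 0 over the gene body alone, 2 and 1 without peaks at the start sites of other genes, and 5 and 2 with centred lists. With the replicate block there were 18 higher and 3 lower for H3K27ac, and 6 higher and 10 lower for H3K4me3, while calls over all genes rose as well, to 2754 and 776 for H3K27ac and 769 and 2756 for H3K4me3. Deviations of same-numbered lists were not correlated (r = 0.01 for H3K27ac and -0.01 for H3K4me3, across genes). With 2 lists per arm this cannot show whether same-numbered samples came from 1 culture or batch, which the labels do not say.

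With 1 list left out, genes higher ranged from 0 to 16 and lower from 0 to 1 for H3K27ac, and from 0 to 4 and 0 to 4 for H3K4me3. The 0 came from leaving out a siFLI1 list, which limma fits with 1 sample assumed to vary like the other arm, or, for lower H3K27ac, also siNEG replicate 2. Gained H3K27ac regions ranged from 98 to 192 and lost ones from 30 to 96, gained H3K4me3 regions from 3 to 9 and lost ones from 3 to 20, and gained ETS1 regions from 7 to 10, since 1 list then decides its arm.

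Requiring no peak within 1 kb left 10 lost H3K27ac and 1 lost H3K4me3 regions, and the gene body alone left 0 lost H3K4me3 regions. Equal numbers of the strongest peaks left 0 gained ETS1 regions, as each list is then as short as the shortest.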
